A study of Mus musculus with 17 samples.

Results

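The genes described here are 60 regulators of pre-mRNA splicing, chosen by name, of which 52 were measured among the 23238 transcript clusters of the array. A transcript cluster is the set of exon probes summarised as 1 gene-level value. A member was taken where its current or earlier symbol was the only symbol of a transcript cluster, and a gene with several was read at the cluster with the highest mean. Of the 60 members, 5 (Srsf7, Hnrnpa1, Hnrnpr, Nova1 and U2af1) matched no listed cluster and 3 (Tra2a, Hnrnpa3 and Hnrnpf) occurred only in clusters shared with other genes. Those 8 are not analysed here. The cluster assigned to U2af2 is uncertain, because 19 of the 20 named clusters numbered next to it belong to genes of chromosome 13 while RefSeq places U2af2 on chromosome 7. For Rbm47, 11 of 20 such clusters belong to genes of its own chromosome 5, and for Srsf11 13 of 20 to chromosome 3. These are fewer than for the other members except U2af2.

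RNA came from lung of SPC/c-Raf mice, in which the surfactant protein C promoter drives a c-Raf kinase transgene in alveolar epithelial cells, and from wild-type (non-transgenic) mice. The tissue was laser-microdissected from frozen sections and measured on 17 Affymetrix Mouse Exon 1.0 ST arrays. Dysplastic lesions and microscopically unaltered transgenic tissue were each measured on 4 arrays. They share their 4 animal labels, and these mice were males aged 5 to 6 months. Adenocarcinomas were measured on 4 arrays, 3 labelled male and 1 female, at 11.5 to 14 months. Non-transgenic alveolar tissue was measured on 5 arrays, 2 labelled male and 3 female, at 7 to 11 months. The labels of 3 arrays name 2 animals each: dysplasia and unaltered replicate 2, which form 1 of the pairs, and adenocarcinoma replicate 4. Below, "all 4 animals" stands for the 4 shared animal labels. The strain background is not given in the sources used here, and tissue stage and age move together across the groups.

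Splicing regulators bind exons and introns of the primary transcript and decide which splice sites the spliceosome uses. SR proteins usually promote inclusion of the exons they bind, and SRPK and CLK kinases phosphorylate them, while hnRNPs and PTB proteins often repress splice sites. A smaller group is restricted to certain cell types: ESRP proteins act in epithelia, where they favour epithelial isoforms of receptors such as Fgfr2, while QKI, MBNL, CELF and RBFOX proteins are best known from muscle, brain and mesenchymal or endothelial cells. The study was made to map alternative splicing in these lesions. The values used here are gene-level values, so they show how much RNA of each regulator was present and not how any exon was spliced.

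All levels below are the authors' log2 RMA values. Levels of different genes are not set against each other, because probes differ in brightness. Differences are log2 differences from the main fit, 1 limma fit across all 23238 clusters, adjusted for labelled sex, with animal as a random block. They are given with their standard error (SE), and a difference was called where its Benjamini-Hochberg adjusted p was under 0.05. Because of the sex term a fitted difference can depart from that of the group means.

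Some facts of the arrays touch all results. Within the non-transgenic group, replicates 4 and 5 differed from the other 3: Spearman correlations across the 2 sets were 0.975 to 0.980, and within each set at least 0.989. The Y-linked genes of 4 arrays went against the labelled sex. Epithelial markers (14 genes measured, among them Epcam, Cdh1 and Sftpc) had a mean log2 level of 10.11 to 10.57 on the non-transgenic, 10.34 to 10.56 on the unaltered, 11.2 to 11.5 on the dysplasia and 11.63 to 11.69 on the adenocarcinoma arrays. Endothelial markers (15 genes, among them Pecam1 and Cdh5) went the other way, at 11.11 to 11.29, 10.59 to 10.95, 9.678 to 10.52 and 8.859 to 8.934 in the same order. Fibroblast markers (10 genes) lay at 10.01 to 10.16, 9.873 to 10.18, 9.454 to 9.762 and 8.726 to 8.818. In such tissue pieces, fewer cells of a type and less RNA per cell cannot be told apart.

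Most splicing regulators differed by less than 2-fold in all 4 comparisons, while Esrp1, Esrp2, Celf4, Qk and Rbm47 passed it in at least 1. In dysplasia against unaltered tissue of the same animals, 12 of the 52 measured members were higher and 1 was lower, against 14.4% and 5.17% of all clusters. In adenocarcinoma against dysplasia, 3 were higher and 3 lower, where 3.79% and 6.65% of all clusters were called. In adenocarcinoma against non-transgenic lung, 7 were higher and 8 lower, with 12.1% and 15.3% of all clusters called. In unaltered transgenic against non-transgenic lung, 2 were higher and 7 lower, with 1.34% and 6.89% of all clusters called. The member shares, in that order, were 23.1% and 1.92%, 5.77% and 5.77%, 13.5% and 15.4%, and 3.85% and 13.5%. The median log2 difference of the members was 0.11, 0.023, -0.0038 and -0.14, beside 0.056, 0.0085, 0.0067 and -0.085 over all clusters. These comparisons share arrays, the unaltered, dysplasia, adenocarcinoma and non-transgenic arrays each entering 2 of the 4. Without non-transgenic replicates 4 and 5 the counts of members higher and lower were 17 and 1, 4 and 4, 7 and 17, and 1 and 8, beside 17.2% and 5.89%, 5.11% and 8.41%, 15.3% and 16.1%, and 1.45% and 2.84% of all clusters. When the Y-linked genes instead of the labels set the sex term, the counts were 18 and 1 (18.1% and 6.42% of all clusters), 5 and 4 (6.45% and 9.57%), 8 and 16 (17.8% and 18.1%), and 3 and 14 (4.12% and 11.6%). Members called with this sex term but not in the main fit are not listed here. A fixed replicate block for each animal left dysplasia against unaltered tissue with 5 members higher and 0 lower (6.18% and 1.92%). In the main fit, 23 members were called in at least 1 comparison and 29 in none. Of the 23, 5 (Esrp1, Esrp2, Rbm47, Celf4 and Qk) were both called and past 2-fold in at least 1.

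**Figure D1:**
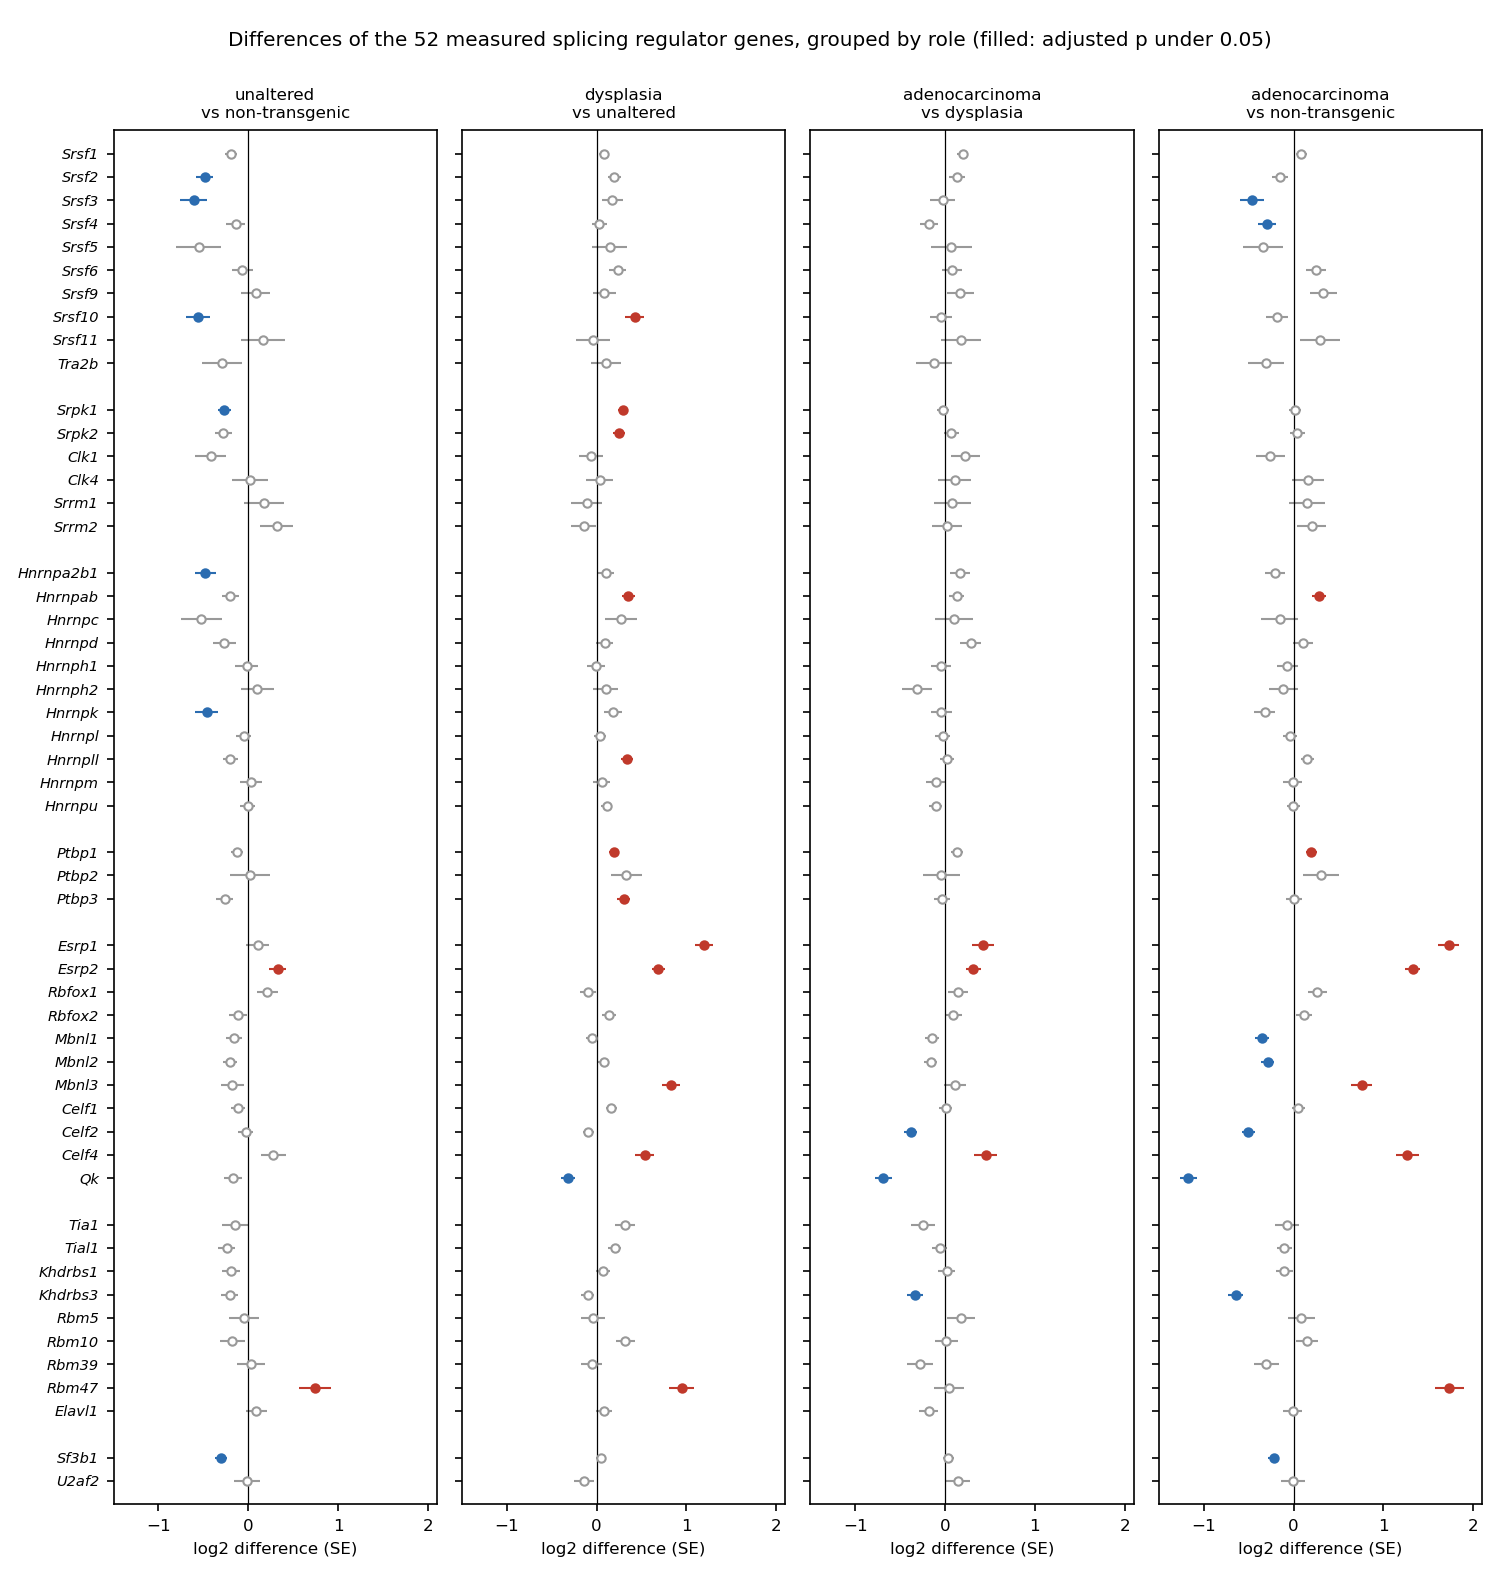
Log2 differences of the 52 measured splicing regulator genes in the 4 comparisons, 1 line per gene and grouped by role. Points are fitted differences with their SE, filled red where called higher, filled blue where called lower and open where not called. The points past a log2 difference of 1 in either direction belong to Esrp1, Esrp2, Rbm47, Celf4 and Qk, while the SR proteins and hnRNPs lie within it.

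Esrp1 and Esrp2, paralogous RNA-binding proteins that set epithelial splicing programmes, were higher in dysplasia than in unaltered tissue of the same animals and higher again in adenocarcinoma. The log2 levels of Esrp1 on the non-transgenic arrays were 7.98, 8.06, 8.06, 8.12 and 8.41, and on the unaltered arrays they were 8.33, 8.03, 8.60 and 8.24. Its dysplasia levels were 9.44, 9.52, 9.62 and 9.43, and its adenocarcinoma levels were 10.08, 9.81, 9.90 and 9.79. The non-transgenic and unaltered arrays overlapped, all dysplasia arrays lay above both, and all adenocarcinoma arrays lay above all dysplasia arrays. Esrp1 rose by 1.20 ± 0.10 (adjusted p = 4.36e-06) from unaltered tissue to dysplasia, a 2.3-fold rise seen in all 4 animals. From dysplasia to adenocarcinoma it rose by 0.42 ± 0.12 (adjusted p = 0.036), a difference that was 0.049 (adjusted p = 0.982) with age as a covariate. It was 3.31-fold higher in adenocarcinoma than in non-transgenic lung (1.73 ± 0.12, adjusted p = 4.01e-08). The difference between unaltered and non-transgenic tissue, 0.11 ± 0.13 (adjusted p = 0.677), was not called.

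For Esrp2 the 4 tissue groups did not overlap at any step. Its levels were 7.71, 7.85, 7.83, 7.85 and 7.88 on the non-transgenic arrays and 8.21, 8.16, 8.08 and 8.14 on the unaltered arrays. They were 8.73, 8.94, 9.00 and 8.66 in dysplasia and 9.13, 9.10, 9.17 and 9.19 in adenocarcinoma. Every unaltered array lay above every non-transgenic one, every dysplasia array above every unaltered one, and every adenocarcinoma array above every dysplasia one. Esrp2 was higher by 0.33 ± 0.090 (adjusted p = 0.0406) in unaltered than in non-transgenic lung, and by 0.69 ± 0.070 (adjusted p = 2.13e-05) in dysplasia than in unaltered tissue, in all 4 animals. It was higher by 0.31 ± 0.083 (adjusted p = 0.0253) in adenocarcinoma than in dysplasia, and 2.51-fold higher in adenocarcinoma than in non-transgenic lung (1.33 ± 0.081, adjusted p = 1.58e-08). The unaltered against non-transgenic call of Esrp2 was lost without any of non-transgenic replicates 1, 2, 3 or 5 or unaltered replicates 1, 2 or 4, and without non-transgenic replicates 4 and 5 together. In adenocarcinoma against dysplasia, the Esrp2 call was lost without dysplasia replicate 1 or 4 or adenocarcinoma replicate 1, 3 or 4, and that of Esrp1 without dysplasia replicate 1, 2 or 4 or adenocarcinoma replicate 1, 2 or 3.

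Rbm47, an RNA-binding protein that regulates splicing and RNA stability in epithelial tissues, had already risen in unaltered transgenic tissue. Its levels were 8.46, 8.68, 8.76, 8.83 and 8.90 on the non-transgenic arrays and 9.08, 9.40, 9.81 and 9.39 on the unaltered ones. They were 10.11, 10.55, 10.73 and 10.08 in dysplasia and 10.27, 10.50, 10.43 and 10.52 in adenocarcinoma. Unaltered arrays lay above all non-transgenic arrays and below all dysplasia arrays, and the dysplasia and adenocarcinoma arrays overlapped. Rbm47 was higher by 0.75 ± 0.18 (adjusted p = 0.0227) in unaltered than in non-transgenic lung, a call lost without non-transgenic replicate 1. It rose by 0.95 ± 0.14 (adjusted p = 0.000326) in dysplasia, in all 4 animals, and was 3.33-fold higher in adenocarcinoma than in non-transgenic lung (1.74 ± 0.16, adjusted p = 7.86e-07). Adenocarcinoma and dysplasia differed by 0.043 ± 0.16 (adjusted p = 0.914), which was not called.

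In dysplasia against unaltered tissue and in adenocarcinoma against non-transgenic lung, the epithelial markers rose as Esrp1, Esrp2 and Rbm47 did. Of the 14 epithelial markers measured, 13 were called higher in dysplasia than in unaltered tissue (median log2 difference 0.94), 6 in adenocarcinoma than in dysplasia (0.42) and 13 in adenocarcinoma than in non-transgenic lung (1.35). In unaltered against non-transgenic lung 4 of them were called higher (28.6%, beside 1.34% of all clusters) and 0 lower, with a median of 0.05. Esrp2 and Rbm47 were called higher there too. Rbm47 was not called between adenocarcinoma and dysplasia, where the markers were higher. Proliferation markers (11 genes) moved too, at mean levels of 6.51 to 6.777 on the non-transgenic and 6.613 to 6.877 on the unaltered arrays, 7.203 to 7.604 in dysplasia and 7.267 to 7.444 in adenocarcinoma. The part of either in the rise of Esrp1, Esrp2 and Rbm47 was not tested.

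Mbnl3, the muscleblind family member that is least abundant in adult tissues, rose in dysplasia, whereas Mbnl1 and Mbnl2 were not called there. Its levels were 7.25, 7.39, 7.56, 7.71 and 7.85 on the non-transgenic and 7.46, 7.34, 7.28 and 7.49 on the unaltered arrays. They were 8.14, 8.25, 8.31 and 8.18 in dysplasia and 8.23, 8.26, 8.37 and 8.42 in adenocarcinoma. Both lesion groups lay above all 9 arrays without lesions. Non-transgenic replicates 4 and 5 were the highest of those 9. Mbnl3 rose 1.78-fold in dysplasia (0.83 ± 0.10, adjusted p = 8.86e-05), in all 4 animals, and was 1.69-fold higher in adenocarcinoma than in non-transgenic lung (0.76 ± 0.12, adjusted p = 0.00014). Mbnl1, whose protein drives adult splicing patterns in muscle and other tissues, had levels of 11.27, 11.31, 11.27, 11.33 and 11.35 on the non-transgenic arrays and 11.28, 11.14, 11.03 and 11.17 on the unaltered arrays. In dysplasia Mbnl1 had levels of 11.26, 11.08, 10.85 and 11.22, and in adenocarcinoma 10.93, 10.95, 10.96 and 10.98. All adenocarcinoma arrays lay below all non-transgenic arrays, and the dysplasia arrays were all below the non-transgenic ones as well, with replicate 3 below and the other 3 above the adenocarcinoma arrays. Mbnl1 fell by 0.35 ± 0.081 (adjusted p = 0.00404) from non-transgenic lung to adenocarcinoma and Mbnl2 by 0.28 ± 0.072 (adjusted p = 0.00779), the latter not called without adenocarcinoma replicate 2. In dysplasia against unaltered tissue the differences were -0.050 ± 0.070 (adjusted p = 0.664) for Mbnl1 and 0.077 ± 0.062 (adjusted p = 0.423) for Mbnl2, neither called.

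Celf4, a CELF family splicing and translation regulator best known from neurons, was higher in lesions. Its levels were 6.14, 5.91, 5.89, 6.21 and 6.24 on the non-transgenic and 6.17, 6.64, 6.54 and 6.38 on the unaltered arrays. They were 6.65, 7.16, 7.22 and 6.85 in dysplasia and 7.41, 7.37, 7.34 and 7.44 in adenocarcinoma. The adenocarcinoma arrays lay close together and above all others, while the dysplasia arrays were spread widely just above the unaltered ones. Celf4 was 2.41-fold higher in adenocarcinoma than in non-transgenic lung (1.27 ± 0.12, adjusted p = 1.57e-06) and rose by 0.54 ± 0.11 (adjusted p = 0.00297) in dysplasia, in all 4 animals. Adenocarcinoma exceeded dysplasia by 0.45 ± 0.13 (adjusted p = 0.0344), a call lost without dysplasia replicate 1 or 4 or without any 1 of the 4 adenocarcinoma arrays. Neuronal markers (7 genes) had a mean level of 6.02 to 6.151 on the non-transgenic, 5.983 to 6.043 on the unaltered, 5.592 to 5.803 on the dysplasia and 5.447 to 5.582 on the adenocarcinoma arrays, and none of the 7 was called higher in any of the 4 comparisons. Between adenocarcinoma and non-transgenic lung, Stmn2 differed by -3.38 ± 0.16 (adjusted p = 1.69e-09) and Gap43 by -1.41 ± 0.16 (adjusted p = 5.84e-06), the 2 called lower, while the median difference of the 7 was 0.14 there and 0.11 against dysplasia.

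**Figure D2:**
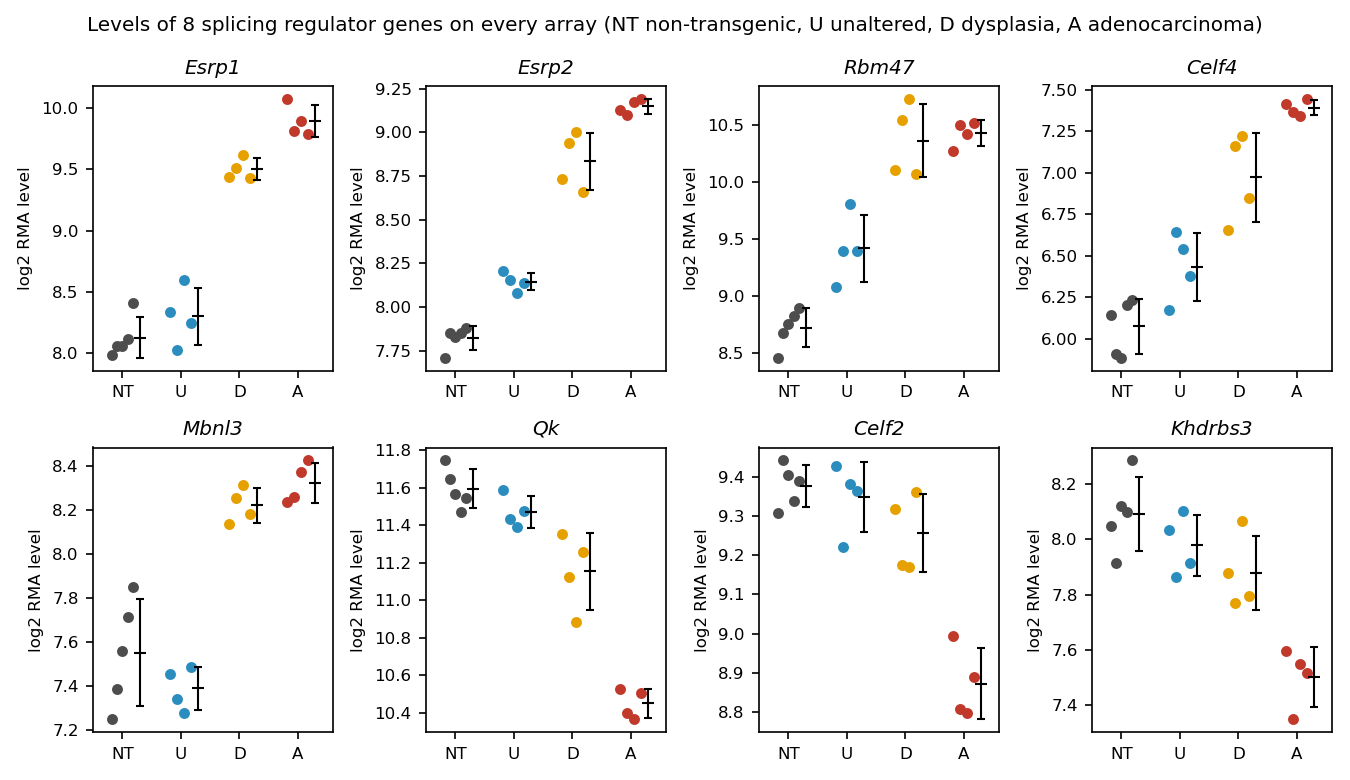
Log2 RMA levels of 8 splicing regulator genes on every array, with 1 panel per gene and an axis of its own in each. Points are arrays in order of replicate number, bars are the group mean with its standard deviation, and the groups hold 5, 4, 4 and 4 arrays from left to right. Esrp1, Esrp2, Rbm47, Celf4 and Mbnl3 were higher in both lesion groups, while Qk, Celf2 and Khdrbs3 were lowest in adenocarcinoma.

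Other cell-type-restricted regulators fell, mostly in adenocarcinoma. Qk encodes quaking, a STAR family protein that binds intronic motifs and is abundant in endothelial cells, muscle and glia. The log2 levels of Qk on the non-transgenic arrays were 11.75, 11.65, 11.57, 11.47 and 11.55, and on the unaltered arrays 11.59, 11.43, 11.39 and 11.48. In dysplasia they were 11.36, 11.13, 10.88 and 11.26, and in adenocarcinoma 10.53, 10.40, 10.36 and 10.51. Every dysplasia array lay below every unaltered array, and every adenocarcinoma array below every dysplasia array. Qk fell by 0.32 ± 0.081 (adjusted p = 0.0128) in dysplasia, in all 4 animals, and by a further 0.69 ± 0.096 (adjusted p = 0.000255) from dysplasia to adenocarcinoma. With animal as a fixed block the dysplasia call was lost (adjusted p = 0.0778). In adenocarcinoma it stood at 0.443 of its non-transgenic level (-1.17 ± 0.094, adjusted p = 1.9e-07). A second Qk cluster, with a mean level of 4.39 over the arrays against 11.19 for the one used, differed by 1.07 ± 0.46 (adjusted p = 0.125) in dysplasia, by 0.035 ± 0.55 (adjusted p = 0.982) between adenocarcinoma and dysplasia and by 0.027 ± 0.54 (adjusted p = 0.98) between adenocarcinoma and non-transgenic lung, none of them called. The mean of both clusters gave a dysplasia difference of 0.38, of the opposite sign and not called, and differences of -0.33 (adjusted p = 0.555) and -0.57 (adjusted p = 0.156) from dysplasia and from non-transgenic lung to adenocarcinoma.

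Celf2, a CELF family protein of muscle, brain and immune cells, fell in adenocarcinoma. Celf2 had levels of 9.31, 9.44, 9.40, 9.34 and 9.39 on the non-transgenic arrays and 9.43, 9.22, 9.38 and 9.36 on the unaltered arrays. In dysplasia it had 9.32, 9.18, 9.17 and 9.36, and in adenocarcinoma 8.99, 8.81, 8.80 and 8.89. The first 3 groups overlapped, and all adenocarcinoma arrays lay below them. Celf2 fell by 0.38 ± 0.074 (adjusted p = 0.00337) from dysplasia to adenocarcinoma and stood in adenocarcinoma at 0.704 of its non-transgenic level (-0.51 ± 0.073, adjusted p = 7.25e-05). Its second cluster also fell, by 0.57 ± 0.14 (adjusted p = 0.0164) and 1.45 ± 0.14 (adjusted p = 1.03e-06) on the log2 scale in the same comparisons. It was lower as well by 0.36 ± 0.12 (adjusted p = 0.0427) in dysplasia than in unaltered tissue and by 0.52 ± 0.15 (adjusted p = 0.0499) in unaltered than in non-transgenic lung, all 4 called. The cluster used was not called in those last comparisons as deposited, at -0.092 ± 0.062 (adjusted p = 0.337) and -0.030 ± 0.081 (adjusted p = 0.863), but was called lower in dysplasia after quantile (-0.20 ± 0.057, adjusted p = 0.0225) and cyclic loess scaling (-0.21 ± 0.055, adjusted p = 0.0167).

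Khdrbs3 encodes another STAR family protein, known as SLM2 and T-STAR, which controls neurexin splicing in brain. Its levels were 8.05, 7.91, 8.12, 8.10 and 8.29 on the non-transgenic and 8.03, 7.86, 8.10 and 7.91 on the unaltered arrays. They were 7.88, 7.77, 8.07 and 7.80 in dysplasia and 7.60, 7.35, 7.55 and 7.52 in adenocarcinoma. As with Celf2, the adenocarcinoma arrays lay below all others and the other groups overlapped. Khdrbs3 fell by 0.34 ± 0.085 (adjusted p = 0.0204) from dysplasia to adenocarcinoma, a call lost without adenocarcinoma replicate 3 or 4. In adenocarcinoma it stood at 0.64 of its non-transgenic level (-0.64 ± 0.084, adjusted p = 2.82e-05). With age as a covariate none of the 6 calls between adenocarcinoma and dysplasia was kept: the differences were -0.67 for Khdrbs3, -0.58 for Celf2, -0.63 for Qk, 0.64 for Celf4 and 0.26 for Esrp2, with adjusted p from 0.125 for Khdrbs3 to 0.982 for Esrp1.

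In adenocarcinoma these falls went with lower mean levels of the endothelial and fibroblast markers. In dysplasia, where those means were lower too, Qk was the 1 member called lower. Of 15 endothelial markers, 13 were called lower in dysplasia than in unaltered tissue (median log2 difference -0.67), 14 in adenocarcinoma than in dysplasia (-1.26) and 15 in adenocarcinoma than in non-transgenic lung (-2.18). Of 10 fibroblast markers, 5 were called lower in dysplasia than in unaltered tissue and 4 in adenocarcinoma than in dysplasia, where Col1a1 was higher (0.35 ± 0.10, adjusted p = 0.0458). Of the same 10, 6 were lower in adenocarcinoma than in non-transgenic lung (the largest fall that of Ogn, -5.22 ± 0.23, adjusted p = 9.89e-10) and 2, the collagen genes Col1a1 (0.66 ± 0.10, adjusted p = 0.000128) and Col3a1 (0.56 ± 0.13, adjusted p = 0.00348), were higher there. Leucocyte markers (14 genes) lay at 8.73 to 8.911, 8.531 to 8.836, 8.353 to 8.668 and 8.269 to 8.474 from non-transgenic lung to adenocarcinoma. Within dysplasia, replicate 3 had the lowest endothelial mean and the lowest Qk, Celf2 and Mbnl1 levels, but the highest Khdrbs3 level. The part of these cell types in the falls of Qk, Celf2, Khdrbs3, Mbnl1 and Mbnl2 was not tested.

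**Figure D3:**
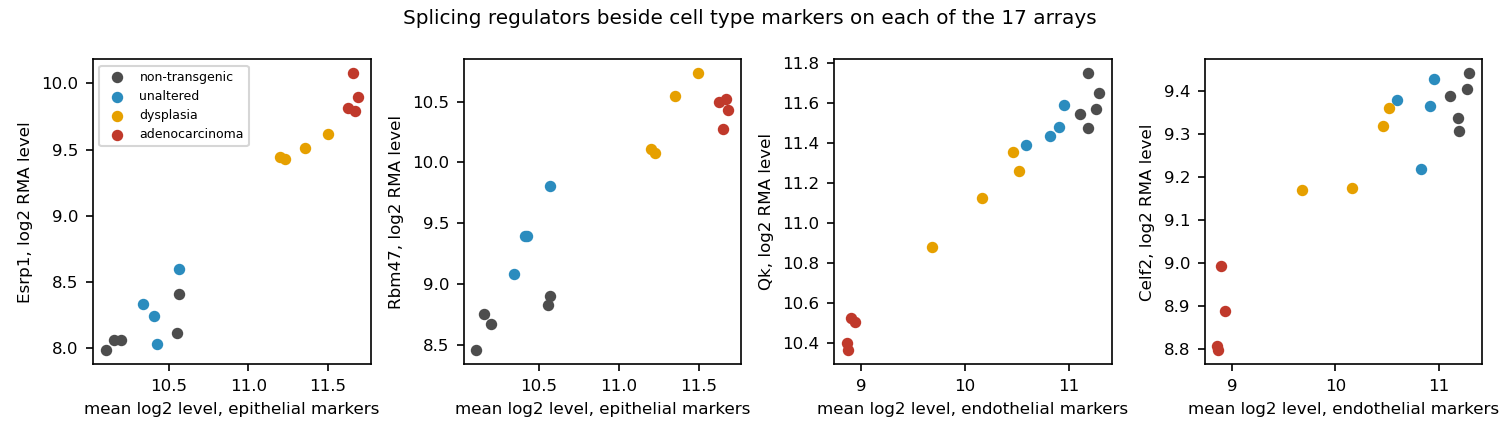
Log2 RMA levels of 4 splicing regulator genes (vertical axes) against the mean log2 level of cell type markers (horizontal axes) on each of the 17 arrays, coloured by group. Esrp1 and Rbm47 are set against 14 epithelial markers and Qk and Celf2 against 15 endothelial markers. The lesion arrays lie at the upper right for Esrp1 and Rbm47, and the adenocarcinoma arrays at the lower left for Qk and Celf2.

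Rbfox2, which binds UGCAUG in introns and is broadly expressed, was not called in any comparison of the main fit. Rbfox2 had levels of 9.12, 9.31, 9.18, 8.85 and 9.06 on the non-transgenic arrays and 9.03, 8.93, 8.91 and 9.05 on the unaltered arrays. In dysplasia it had 9.10, 9.10, 9.02 and 9.25, and in adenocarcinoma 9.24, 9.22, 9.13 and 9.27. All groups overlapped except that the adenocarcinoma arrays lay above the unaltered ones. Its differences were 0.14 ± 0.076 (adjusted p = 0.23) in dysplasia against unaltered tissue and 0.12 ± 0.089 (adjusted p = 0.38) in adenocarcinoma against non-transgenic lung. Rbfox1 and Celf1, its neuronal paralogue and the broadly expressed CELF family member, were called in no comparison of that fit either. Rbfox1 had a mean level of 5.54, the lowest of the 52 members, near the lower quartiles of the arrays (4.97 to 5.11).

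Promoter sequences from RefSeq (GRCm38.p6) are shown for Qk, Rbm47 and Mbnl3, 3 members with large called differences that the promoter table holds, chosen after their values were seen. Each line gives the 250 bases before the annotated start, 5′ to 3′ on the gene's own strand, with CG dinucleotides in capitals. Rbm47 has 3 such windows, of which the one with the most CG is printed.
Qk, chr17:10319362-10319611, minus strand: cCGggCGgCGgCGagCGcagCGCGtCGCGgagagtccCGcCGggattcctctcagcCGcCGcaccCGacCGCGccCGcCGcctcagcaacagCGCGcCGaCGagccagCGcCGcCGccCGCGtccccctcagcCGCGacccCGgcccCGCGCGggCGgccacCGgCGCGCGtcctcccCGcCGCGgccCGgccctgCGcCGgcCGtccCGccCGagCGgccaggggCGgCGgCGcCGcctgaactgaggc
Rbm47, chr5:66150979-66151228, minus strand: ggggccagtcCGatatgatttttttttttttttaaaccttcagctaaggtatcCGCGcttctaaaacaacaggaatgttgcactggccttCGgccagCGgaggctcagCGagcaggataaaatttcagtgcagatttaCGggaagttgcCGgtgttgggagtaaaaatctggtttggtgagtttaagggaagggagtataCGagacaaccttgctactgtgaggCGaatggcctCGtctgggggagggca
Mbnl3, chrX:51205991-51206240, minus strand: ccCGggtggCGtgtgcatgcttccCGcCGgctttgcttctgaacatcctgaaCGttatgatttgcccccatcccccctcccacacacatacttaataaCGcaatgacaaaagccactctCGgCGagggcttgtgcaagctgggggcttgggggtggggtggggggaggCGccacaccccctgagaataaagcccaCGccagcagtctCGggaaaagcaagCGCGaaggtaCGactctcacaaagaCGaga
The Qk window holds 52 CG, a number reached by 0.0487% of the 32851 mouse windows. Rbm47 holds 11 in this window, a number reached by 35.6% of all windows, and Mbnl3 15, reached by 27.3%. Over the 63 windows of the 42 measured members found in the table the median was 19 CG, beside 6 over all windows. The E-box CACCTG, read on either strand, occurred in 6 member windows (9.52%) and in 17.2% of all windows. These are counts of letters in the reference and say nothing of methylation or binding in this tissue.

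Of 10 SR proteins measured, 3 (Srsf2, Srsf3 and Srsf10) were called lower in unaltered transgenic than in non-transgenic lung, and none higher. All clusters were called lower in 6.89% and higher in 1.34% there. In dysplasia 1 (Srsf10) was called higher than in unaltered tissue, beside 14.4% of all clusters. Between adenocarcinoma and dysplasia none was called, beside 3.79% higher and 6.65% lower. In adenocarcinoma against non-transgenic lung 2 (Srsf3 and Srsf4) were lower, beside 15.3%. Srsf2, an SR protein that binds exonic enhancers and is regulated by its own splicing, had levels of 10.53, 10.54, 10.47, 10.70 and 10.92 on the non-transgenic and 10.09, 10.32, 10.17 and 10.20 on the unaltered arrays. In dysplasia Srsf2 had 10.39, 10.42, 10.38 and 10.40, and in adenocarcinoma 10.48, 10.52, 10.47 and 10.56. The unaltered arrays were the lowest group, with no overlap with any other, and non-transgenic replicate 5 was the highest array. Srsf2 was lower by 0.49 ± 0.097 (adjusted p = 0.0115) in unaltered than in non-transgenic lung, a call lost without non-transgenic replicate 5 but kept under quantile (-0.34 ± 0.087, adjusted p = 0.0457) and cyclic loess scaling (-0.37 ± 0.088, adjusted p = 0.0334).

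Srsf3, the smallest of the classical SR proteins and also a factor in mRNA export, varied more between arrays of a group. Its levels were 8.21, 7.99, 7.84, 7.85 and 8.10 on the non-transgenic and 7.66, 7.42, 7.73 and 7.65 on the unaltered arrays. They were 8.20, 7.48, 7.87 and 7.60 in dysplasia and 7.94, 7.25, 7.72 and 7.76 in adenocarcinoma. The unaltered arrays lay below all non-transgenic arrays, but the dysplasia arrays spanned nearly the whole range. Srsf3 was lower by 0.61 ± 0.15 (adjusted p = 0.0258) in unaltered than in non-transgenic lung, a call lost without non-transgenic replicate 5 or unaltered replicate 2, without non-transgenic replicates 4 and 5 together and under both other scalings. The value was -0.38 (adjusted p = 0.103) with no sex term and -0.40 (adjusted p = 0.134) when Y-linked genes set the sex. In adenocarcinoma it was lower than in non-transgenic lung by 0.46 ± 0.13 (adjusted p = 0.0178), and the 2 groups overlapped. That call was lost without adenocarcinoma replicate 2, with no sex term (-0.33, adjusted p = 0.119), with sex from Y-linked genes (-0.35, adjusted p = 0.147) and after quantile scaling (-0.36, adjusted p = 0.0574).

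Srsf1, the founding SR protein and an oncogene in some cancers, was not called. Srsf1 had levels of 9.82, 9.73, 9.72, 9.62 and 9.66 on the non-transgenic arrays and 9.50, 9.49, 9.63 and 9.55 on the unaltered ones. In dysplasia it had 9.60, 9.62, 9.71 and 9.57, and in adenocarcinoma 9.86, 9.79, 9.78 and 9.81. Adenocarcinoma arrays lay above the dysplasia arrays without overlap, yet the difference of 0.20 ± 0.062 (adjusted p = 0.0601) missed the threshold. It passed under 6 of the alternatives, among them the fit without non-transgenic replicates 4 and 5 (0.20 ± 0.055, adjusted p = 0.03) and that without dysplasia replicate 3. Against non-transgenic lung the adenocarcinoma difference was 0.087 ± 0.061 (adjusted p = 0.347), with a 95% interval from -0.045 to 0.22. Srsf10, an SR protein active in its dephosphorylated form, was lower by 0.56 ± 0.14 (adjusted p = 0.0258) in unaltered than in non-transgenic lung and higher by 0.43 ± 0.11 (adjusted p = 0.0113) in dysplasia than in unaltered tissue, in all 4 animals. The first of these calls was lost without any of non-transgenic replicates 1 or 5 or unaltered replicates 1 or 2, and without non-transgenic replicates 4 and 5 together. It was also lost when Y-linked genes set the sex (-0.39, adjusted p = 0.0812) and under both other scalings. The second was lost without unaltered replicate 2, with cyclic loess scaling (adjusted p = 0.0531) and with the fixed block for animal (adjusted p = 0.0572). Srsf4 was lower in adenocarcinoma than in non-transgenic lung by 0.29 ± 0.099 (adjusted p = 0.0386), lost without any of non-transgenic replicates 1 to 3 or adenocarcinoma replicates 1 to 3. The other 5 SR proteins measured (Srsf5, Srsf6, Srsf9, Srsf11 and Tra2b) were called in no comparison of the main fit. Without non-transgenic replicates 4 and 5, Srsf5 was lower in unaltered than in non-transgenic lung (-0.98 ± 0.19, adjusted p = 0.0194, beside -0.55 ± 0.25, adjusted p = 0.193, with all arrays) and in adenocarcinoma than in non-transgenic lung (-0.73 ± 0.17, adjusted p = 0.00513, beside -0.34 ± 0.23, adjusted p = 0.316). Srsf6 was then lower in unaltered than in non-transgenic lung (-0.28 ± 0.069, adjusted p = 0.0468, beside -0.065 ± 0.12, adjusted p = 0.796) and higher in dysplasia than in unaltered tissue (0.23 ± 0.046, adjusted p = 0.00317). Tra2b was then lower in adenocarcinoma than in non-transgenic lung (-0.63 ± 0.17, adjusted p = 0.0136, beside -0.31 ± 0.20, adjusted p = 0.293).

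Among the SR kinases and coactivators, Srpk1 and Srpk2, kinases that phosphorylate SR proteins in the cytoplasm, were higher in dysplasia than in unaltered tissue. Srpk1 had levels of 9.17, 9.21, 9.20, 9.11 and 9.18 on the non-transgenic arrays and 9.06, 8.87, 8.91 and 8.86 on the unaltered ones. In dysplasia it had 9.18, 9.31, 9.23 and 9.18, and in adenocarcinoma 9.26, 9.15, 9.22 and 9.17. The unaltered arrays were lower than all others, and the remaining 3 groups overlapped. Srpk1 was higher by 0.30 ± 0.056 (adjusted p = 0.002) in dysplasia than in unaltered tissue, in all 4 animals, a call lost with animal as a fixed block (adjusted p = 0.0858), and lower by 0.26 ± 0.072 (adjusted p = 0.0385) in unaltered than in non-transgenic lung. That second call was lost without any 1 of non-transgenic replicates 1, 2, 3 or 5 or unaltered replicates 2, 3 or 4, without non-transgenic replicates 4 and 5 together, and under both other scalings. Srpk2 was higher by 0.25 ± 0.071 (adjusted p = 0.0236) in dysplasia, a call lost without dysplasia replicate 1, 2 or 4 or unaltered replicate 2, under both other scalings and with the fixed block (adjusted p = 0.108).

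Clk1, a nuclear kinase of SR proteins, was not called with all arrays, but its non-transgenic arrays fell into 2 levels. Clk1 had 11.32, 11.13, 11.11, 10.42 and 10.66 on non-transgenic replicates 1 to 5, 10.62, 10.51, 10.52 and 10.63 on the unaltered arrays, 10.61, 10.46, 10.36 and 10.59 in dysplasia and 10.87, 10.63, 10.68 and 10.64 in adenocarcinoma. Non-transgenic replicates 1 to 3 lay above every other array, and replicates 4 and 5 lay among the transgenic ones. The fitted difference between unaltered and non-transgenic lung was -0.42 ± 0.18 (adjusted p = 0.159) with all arrays and -0.72 ± 0.097 (adjusted p = 0.00261) without replicates 4 and 5, where it was called. Likewise the difference between adenocarcinoma and non-transgenic lung went from -0.26 ± 0.16 (adjusted p = 0.271) to -0.54 ± 0.086 (adjusted p = 0.000344). Clk4, Srrm1 and Srrm2 were called in no comparison of the main fit.

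Of 11 hnRNPs measured, 2 (Hnrnpa2b1 and Hnrnpk) were lower in unaltered than in non-transgenic lung (18.2%, beside 6.89% of all clusters). In dysplasia 2 (Hnrnpab and Hnrnpll) were higher than in unaltered tissue (18.2%, beside 14.4%). None was called between adenocarcinoma and dysplasia, beside 3.79% higher and 6.65% lower. In adenocarcinoma 1 (Hnrnpab) was higher than in non-transgenic lung (9.09%, beside 12.1%). Hnrnpa2b1, which binds UAG-containing motifs and carries RNAs in neurons, had levels of 9.90, 9.67, 9.60, 9.36 and 9.34 on the non-transgenic and 9.08, 9.19, 9.15 and 9.17 on the unaltered arrays. In dysplasia Hnrnpa2b1 had 9.32, 9.28, 9.13 and 9.28, and in adenocarcinoma 9.54, 9.32, 9.41 and 9.33. Unaltered arrays lay below all non-transgenic arrays, among which replicate 1 was highest and replicates 4 and 5 lowest. Hnrnpa2b1 was lower by 0.48 ± 0.12 (adjusted p = 0.0284) in unaltered than in non-transgenic lung. This call was lost without non-transgenic replicate 1 or unaltered replicate 1, 2 or 4 and under both other scalings. In adenocarcinoma against non-transgenic lung the difference of -0.20 ± 0.11 (adjusted p = 0.193) was not called with all arrays. Without non-transgenic replicates 4 and 5 it was -0.40 ± 0.079 (adjusted p = 0.00196) and called, as it was without replicate 5 alone.

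Hnrnpab, an hnRNP of the A/B type, rose in dysplasia by 0.35 ± 0.071 (adjusted p = 0.00309), in all 4 animals (adjusted p = 0.055 with the fixed block), and was higher by 0.28 ± 0.082 (adjusted p = 0.0181) in adenocarcinoma than in non-transgenic lung, the latter lost without non-transgenic replicate 1 or adenocarcinoma replicate 2. Hnrnpll, which directs Ptprc (CD45) splicing in lymphocytes, rose by 0.34 ± 0.066 (adjusted p = 0.00255) in dysplasia, in all 4 animals (adjusted p = 0.0769 with the fixed block). Of the 14 leucocyte markers, 0 were called higher and 1 (7.14%) lower in the same comparison, beside 14.4% and 5.17% of all clusters. The part of leucocytes in the rise of Hnrnpll was not tested. Hnrnpk, a poly(C)-binding hnRNP, was lower by 0.46 ± 0.13 (adjusted p = 0.0428) in unaltered than in non-transgenic lung, a call lost under both other scalings, when Y-linked genes set the sex (-0.30, adjusted p = 0.105), without non-transgenic replicate 1, 3, 4 or 5 or unaltered replicate 2, 3 or 4, and without non-transgenic replicates 4 and 5 together. Hnrnpc, Hnrnpd, Hnrnph1, Hnrnph2, Hnrnpl, Hnrnpm and Hnrnpu were called in no comparison of the main fit. Without non-transgenic replicates 4 and 5, Hnrnph1 (-0.29 ± 0.061, adjusted p = 0.00306, beside -0.069 ± 0.11, adjusted p = 0.719, with all arrays) and Hnrnph2 (-0.39 ± 0.13, adjusted p = 0.0369, beside -0.11 ± 0.16, adjusted p = 0.68) were lower in adenocarcinoma than in non-transgenic lung.

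PTB proteins bind pyrimidine-rich tracts, and 2 of the 3 family members were higher in dysplasia, beside 14.4% of all clusters. Ptbp1, the widely expressed repressor of neuronal exons, had levels of 9.57, 9.70, 9.56, 9.67 and 9.67 on the non-transgenic arrays and 9.59, 9.54, 9.44 and 9.51 on the unaltered arrays. In dysplasia Ptbp1 had 9.78, 9.67, 9.62 and 9.77, and in adenocarcinoma 9.84, 9.79, 9.85 and 9.88. Adenocarcinoma arrays lay above all others, and dysplasia arrays lay above the unaltered arrays but overlapped the non-transgenic ones. Ptbp1 was higher by 0.19 ± 0.054 (adjusted p = 0.0206) in dysplasia than in unaltered tissue and by 0.20 ± 0.063 (adjusted p = 0.0269) in adenocarcinoma than in non-transgenic lung. The first call was lost without dysplasia replicate 1 or 4 or unaltered replicate 3, and after quantile (0.091 ± 0.057, adjusted p = 0.289) and cyclic loess scaling (0.074 ± 0.054, adjusted p = 0.388). With the fixed block for animal the first had an adjusted p of 0.129. The second was lost without non-transgenic replicate 1 or adenocarcinoma replicate 2, 3 or 4. Ptbp3 rose by 0.30 ± 0.073 (adjusted p = 0.0102) in dysplasia, in all 4 animals, and missed the threshold under both other scalings and with the fixed block (adjusted p = 0.062).

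Ptbp2, the neuronal PTB paralogue, was not called with all arrays. Ptbp2 had levels of 8.33, 8.17, 8.22, 7.61 and 7.28 on non-transgenic replicates 1 to 5 and 8.03, 7.78, 7.90 and 7.83 on the unaltered arrays. In dysplasia it had 8.49, 8.11, 7.93 and 8.35, and in adenocarcinoma 8.32, 8.15, 8.15 and 8.18. Non-transgenic replicates 4 and 5 were the lowest of all arrays, and replicates 1 to 3 lay with the lesions. The difference between adenocarcinoma and non-transgenic lung was 0.31 ± 0.20 (adjusted p = 0.295) with all arrays and -0.081 ± 0.13 (adjusted p = 0.678) without replicates 4 and 5. In dysplasia against unaltered tissue it was 0.33 ± 0.17 (adjusted p = 0.197) with all arrays and 0.33 ± 0.095 (adjusted p = 0.025) without them, where it was called.

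Sf3b1, the core subunit of the complex that recognises the branch point and a frequent target of cancer mutations, was lower in unaltered transgenic tissue and in adenocarcinoma than in non-transgenic lung. Its levels were 11.19, 11.09, 11.07, 11.05 and 11.04 on the non-transgenic and 10.82, 10.76, 10.90 and 10.78 on the unaltered arrays. They were 10.94, 10.83, 10.79 and 10.88 in dysplasia and 10.93, 10.86, 10.89 and 10.86 in adenocarcinoma. All transgenic arrays lay below all non-transgenic arrays, and the 3 transgenic groups overlapped. Sf3b1 was lower by 0.30 ± 0.067 (adjusted p = 0.0179) in unaltered and by 0.22 ± 0.060 (adjusted p = 0.0135) in adenocarcinoma than in non-transgenic lung. The first call was lost under both other scalings, and the second without non-transgenic replicate 1 or adenocarcinoma replicate 2.

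The lower values in unaltered transgenic lung depended on how the arrays were scaled. Quantile normalization shifted the median of all clusters in this comparison by 0.107, from -0.09 to 0.02, and the median of the members from -0.14 to 0.0091. As deposited, 7 members were called lower and 2 higher. With quantile normalization 1 was lower and 2 were higher, and the same counts were found with cyclic loess, against 1.49% lower and 2.29% higher of all clusters with the first and 1.79% and 2.26% with the second. Srsf2 was the member lower under all 3 scalings, and Esrp2 and Rbm47 were higher under all 3. None of the 9 calls was kept with age as a covariate or with only the 2 groups in the fit. In dysplasia against unaltered tissue the split of 12 higher and 1 lower became 9 and 3 with quantile normalization (9.16% and 9.64% of all clusters) and 8 and 2 with cyclic loess (9.47% and 8.5%). In adenocarcinoma against non-transgenic lung it went from 7 and 8 to 9 and 6 (15.5% and 13.1%) and to 8 and 7 (13.3% and 14.9%). Between adenocarcinoma and dysplasia it was 3 and 3 as deposited, with quantile normalization (5.28% and 6.07%) and with cyclic loess (4.15% and 7.16%).

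**Figure D4:**
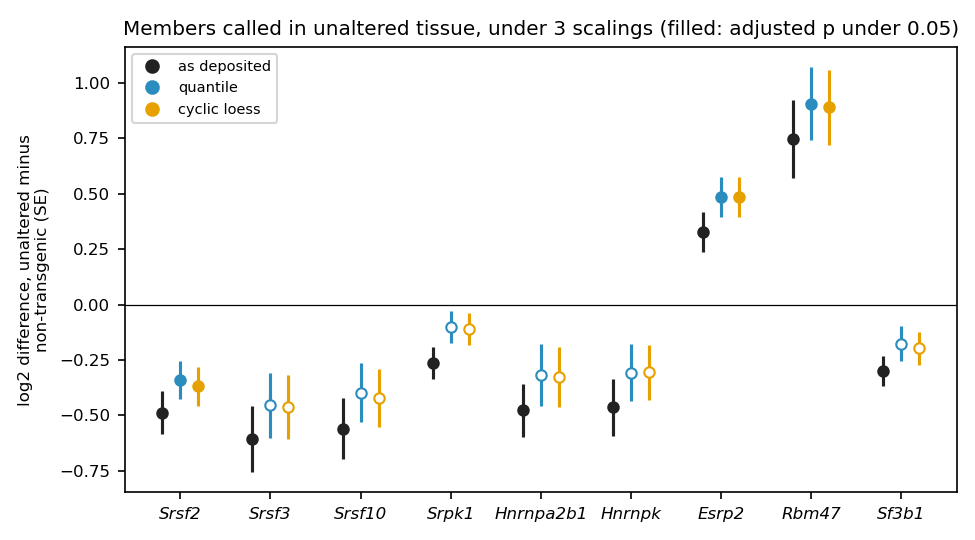
Fitted log2 differences with their SE between unaltered transgenic and non-transgenic lung, for the 9 members called there as deposited, with the values as deposited and after quantile or cyclic loess scaling. Filled points are called. The 7 negative differences all came nearer to 0 after either scaling, while those of Esrp2 and Rbm47 moved away from it.

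For most members that were not called, the fit to all arrays as deposited bounded the difference. Its intervals do not take in the split of the non-transgenic arrays, the doubtful sex labels or the choice of scaling. The 95% interval of the log2 difference lay within 0.5 either way, a 1.41-fold change, for 34 of the 39 members not called in dysplasia against unaltered tissue. The same held for 34 of 46 in adenocarcinoma against dysplasia, 25 of 37 in adenocarcinoma against non-transgenic lung and 34 of 43 in unaltered against non-transgenic lung. Among the other RNA-binding regulators, Tia1, Tial1, Khdrbs1, Rbm5, Rbm10, Rbm39 and Elavl1 were called in no comparison of the main fit. They bind U-rich, AU-rich or exonic sites. Without non-transgenic replicates 4 and 5, Tia1 was called in all 4: -0.44 ± 0.076 (adjusted p = 0.0122) in unaltered against non-transgenic lung, 0.32 ± 0.051 (adjusted p = 0.000883) in dysplasia against unaltered tissue, -0.21 ± 0.059 (adjusted p = 0.0331) in adenocarcinoma against dysplasia and -0.33 ± 0.068 (adjusted p = 0.0022) in adenocarcinoma against non-transgenic lung. With all arrays the first and last of these were -0.15 ± 0.14 (adjusted p = 0.586) and -0.073 ± 0.13 (adjusted p = 0.74). Without those arrays Rbm5 was also lower in unaltered (-0.35 ± 0.076, adjusted p = 0.0294) and adenocarcinoma (-0.20 ± 0.067, adjusted p = 0.0388) than in non-transgenic lung, Rbm39 was lower in adenocarcinoma than in non-transgenic lung (-0.49 ± 0.13, adjusted p = 0.0127), and Tial1 was higher in dysplasia than in unaltered tissue (0.20 ± 0.065, adjusted p = 0.0431). The median standard deviation over the 17 arrays was 0.203 for the members and 0.217 for clusters with 1 gene symbol.

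Genes of the rest of the splicing machinery were taken from lists set by name. Of 55 core spliceosome genes measured, none was higher and 8 were lower in unaltered than in non-transgenic lung, 7 were higher and none lower in dysplasia than in unaltered tissue, 1 was higher and none lower in adenocarcinoma than in dysplasia, and 3 were higher and 8 lower in adenocarcinoma than in non-transgenic lung. These are 0% and 14.5%, 12.7% and 0%, 1.82% and 0%, and 5.45% and 14.5% of the 55, beside 1.34% and 6.89%, 14.4% and 5.17%, 3.79% and 6.65%, and 12.1% and 15.3% of all clusters. Their median log2 differences were -0.11, 0.078, -0.020 and -0.096, in that order. Prpf31, a component of the tri-snRNP, rose by 0.40 ± 0.064 (adjusted p = 0.0007) in dysplasia, and Prpf18, a second-step splicing factor, by 0.39 ± 0.064 (adjusted p = 0.000785). Prpf18 was higher by 0.60 ± 0.075 (adjusted p = 1.75e-05) and Prpf31 by 0.25 ± 0.074 (adjusted p = 0.0191) in adenocarcinoma than in non-transgenic lung, where the Sm-like protein gene Lsm8 was lower by 0.46 ± 0.080 (adjusted p = 0.000441) and the spliceosome component Rbm22 by 0.44 ± 0.078 (adjusted p = 0.000509). Snrnp35, a protein of the minor spliceosome, was the 1 called between adenocarcinoma and dysplasia, higher by 0.44 ± 0.100 (adjusted p = 0.00948). In unaltered against non-transgenic lung the largest called falls were those of Plrg1 (-0.49 ± 0.13, adjusted p = 0.0311) and Lsm8 (-0.44 ± 0.089, adjusted p = 0.0126).

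Of 6 exon junction complex genes, 2 were lower in unaltered than in non-transgenic lung: Rbm8a, a core subunit, by 0.91 ± 0.21 (adjusted p = 0.0208), and Rnps1, by 0.55 ± 0.15 (adjusted p = 0.0386). Rnps1 was the 1 called in dysplasia, higher by 0.45 ± 0.12 (adjusted p = 0.0138). In adenocarcinoma against non-transgenic lung, Rbm8a was lower by 0.91 ± 0.19 (adjusted p = 0.00177) and Sap18 by 0.67 ± 0.13 (adjusted p = 0.000813). None of the 6 was called between adenocarcinoma and dysplasia. The lower shares of the 6 were 33.3% in unaltered and in adenocarcinoma against non-transgenic lung, beside 6.89% and 15.3% of all clusters. The 1 higher in dysplasia made 16.7%, beside 14.4%. Of 30 other splicing regulators, 1 was higher and 2 lower in unaltered than in non-transgenic lung, 3 higher and 1 lower in dysplasia, none called between adenocarcinoma and dysplasia, and 2 higher and 2 lower in adenocarcinoma than in non-transgenic lung. These are 3.33% and 6.67%, 10% and 3.33%, 0% and 0%, and 6.67% and 6.67% of the 30. The shares of all clusters were 1.34% and 6.89%, 14.4% and 5.17%, 3.79% and 6.65%, and 12.1% and 15.3%. Pcbp1, a poly(C)-binding protein, was higher by 0.47 ± 0.12 (adjusted p = 0.0278) in unaltered than in non-transgenic lung, where Hnrnpdl was lower by 0.72 ± 0.18 (adjusted p = 0.0279) and Matr3 by 0.26 ± 0.066 (adjusted p = 0.0273). Puf60, which helps recognise pyrimidine tracts, rose by 0.36 ± 0.068 (adjusted p = 0.00222) in dysplasia and Tardbp, which encodes TDP-43, by 0.30 ± 0.077 (adjusted p = 0.0145), while Pcbp3 fell by 0.48 ± 0.10 (adjusted p = 0.0043). In adenocarcinoma against non-transgenic lung, Pcbp1 was higher by 0.32 ± 0.10 (adjusted p = 0.0358) and Puf60 by 0.26 ± 0.079 (adjusted p = 0.0224), and Pcbp3 was lower by 0.89 ± 0.12 (adjusted p = 3.13e-05) and Srpk3 by 0.39 ± 0.13 (adjusted p = 0.0327).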

How the data were processed

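Per the labels, the authors microdissected the tissue, reduced ribosomal RNA, amplified the RNA and computed core-exon RMA values in Expression Console. The deposited values are log2 RMA levels, from 1.13 to 14.3 with array medians of 6.67 to 6.85, and were used unfiltered. Per the submitters' processing notes, GCOS was also used; versions and the genome build are not given in the sources used here. The number of arrays limits the precision. Exon values are not analysed here.

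Members and lists were chosen with earlier results of these data known. The fit used limma 3.58.1 (R 4.3.3): 4 group means, labelled sex, and animal as a random block (correlation 0.247), with adjusted p over all 23238 transcript clusters. Dysplasia and unaltered arrays were paired by animal label. The correlations of their deviations were 0.21, 0.08, 0.15 and -0.01 for the pairs, and from -0.23 to 0.15 for other combinations. Arrays of a group carry different animal labels.

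Values on every array are printed for 12 members set by name (Hnrnpa1 was not measured) and, in each comparison, for up to 4 called members with the greatest rise and 4 with the greatest fall, if their groups did not overlap. For dysplasia the same direction in 4 animals was asked instead. Of each list of other splicing genes, the 2 largest called rises and falls are named. Alternatives were no block or a fixed block, other sex terms, age, 2 other scalings, a filter at a mean of 5, 1-symbol clusters, eBayes with trend and robust, pairs of groups, and arrays left out.

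Tested on simulated data for 23238 clusters, the fit recovered 60% of log2 changes of 0.5 and 96% of changes of 1 in dysplasia against unaltered tissue. For unaltered against non-transgenic lung it recovered 32% and 84%. For adenocarcinoma it recovered 45% and 88% against dysplasia, and 52% and 90% against non-transgenic lung. The simulated noise was normal, with the spread and block correlation of the fit itself. It held no split of the non-transgenic arrays, scaling shift or wrong sex label, so these rates describe the model and not the real arrays.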

Additional observations from a re-analysis of the deposited data

How the results depend on the processing

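Of 43 calls of members over the 4 comparisons, 12 were kept under every alternative run. They are Esrp1, Esrp2, Mbnl3, Celf4 and Rbm47 in dysplasia against unaltered tissue and in adenocarcinoma against non-transgenic lung, and Celf2 and Khdrbs3 in the latter. The largest numbers of calls were lost without the 3 arrays naming 2 animals (23 of 43), with age as a covariate (21) and with only the 2 groups compared (19). No replicate block lost 3 calls and no sex term 2. Filtering at a mean of 5, 1-symbol transcript clusters, and eBayes with trend and robust lost 0 each. The pairs came from the animal labels: with animal as a fixed replicate block, 5 members were higher and 0 lower in dysplasia than in unaltered tissue, beside 6.18% and 1.92% of all clusters, and 8 of 13 calls were lost.

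In unaltered against non-transgenic lung, the count of members higher moved from 2 to 0 with age, with only the 2 groups and without arrays naming 2 animals, and to 1 without non-transgenic replicates 4 and 5. The count lower moved from 7 to 14 with sex from Y-linked genes, to 1 with quantile normalization and with cyclic loess, and to 0 with age, with only the 2 groups and without arrays naming 2 animals. Of all 23238 clusters, 14 were higher and 2 lower with age, and 1 and 0 with only the 2 groups. Without arrays naming 2 animals 91 clusters were higher and 153 lower. In dysplasia against unaltered tissue, the count higher moved from 12 to 7 without arrays naming 2 animals and to 18 with sex from Y-linked genes (18.1% of all clusters). The count lower moved from 1 to 3 with quantile normalization, to 2 with cyclic loess, and to 0 with only the 2 groups and without arrays naming 2 animals. Of all clusters, 1558 were higher and 569 lower without arrays naming 2 animals, and 867 were lower with only the 2 groups. In adenocarcinoma against dysplasia, the count higher moved from 3 to 5 with sex from Y-linked genes, to 1 with only the 2 groups, and to 0 with age and without arrays naming 2 animals; the count lower moved from 3 to 0 with age. Of all clusters, 5 were higher and 147 lower there with age. Only the 2 groups gave 780 clusters higher, and leaving out arrays naming 2 animals gave 341 higher. In adenocarcinoma against non-transgenic lung, the count lower moved from 8 to 16 with sex from Y-linked genes, to 17 without non-transgenic replicates 4 and 5, and to 4 with age. With age 2680 of all clusters were lower in that comparison.

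Leaving out each array in turn gave 0 to 2 higher and 2 to 6 lower in unaltered against non-transgenic lung, 10 to 14 and 1 to 1 in dysplasia against unaltered tissue, 0 to 4 and 2 to 3 in adenocarcinoma against dysplasia, and 5 to 7 and 4 to 11 in adenocarcinoma against non-transgenic lung. Over all 23238 clusters the counts moved as well, in that order. They were 150 to 350 higher and 232 to 2331 lower, then 2234 to 3103 and 838 to 1167. The last 2 comparisons gave 528 to 1066 and 1181 to 1701, and 2028 to 3047 and 2505 to 3669. The 1 reversal was that of Qk in dysplasia, 0.38 (adjusted p = 0.307) with the mean of its 2 transcript clusters, against adjusted p of 0.0837 or less under its other alternatives. The second cluster has a mean level of 4.39. Of 46 results of the genes printed in full and of Mbnl2 that were not called, 10 were called under at least 1 alternative, none with the opposite sign. The cause of the other moves was not tested.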
